A study of Drosophila melanogaster with 12 samples.

Results

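The 8 Hox genes of Drosophila melanogaster, lab, pb, Dfd, Scr, Antp, Ubx, abd-A and Abd-B, were followed through RNA-seq of larval salivary glands and wing imaginal discs. They were taken by symbol from the 17807 gene IDs counted, and all 8 were found. The libraries fall into 4 groups of 3: wing discs labelled egg_1473; Su(var)3-9_06, wing discs of OregonR controls, salivary glands with the same mutant label, and salivary glands of OregonR controls, all from L3 larvae. egg encodes SetDB1 and Su(var)3-9 a second histone H3 lysine 9 methyltransferase, and the labels describe larvae mutant for both. Each library was made from polyadenylated RNA of 25 glands or 25 pairs of discs pooled, and mRNA enrichment was repeated for glands alone, so preparation and tissue cannot be told apart. The labels mention technical replicates, so p-values may measure only technical spread.

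Hox genes encode homeodomain transcription factors that give each segment of the fly its identity. They lie in the Antennapedia complex and the bithorax complex, in an order along the chromosome that follows the body axis from head to tail. Their on or off states are set in the early embryo and then kept through development by the Polycomb group, which holds them silent, and the trithorax group, which holds them active. The wing disc forms the dorsal part of the second thoracic segment, where Antp is the resident Hox gene. Ubx distinguishes the haltere from the wing and is known in the wing disc from the squamous cells of the peripodial epithelium. The salivary gland arises from the labial segment, where Scr is needed for it to form.

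Depth was 17418224 to 57591665 gene counts per library, so that 3 counts, the limit that a count of 0 allows, came to 0.0521 to 0.172 CPM (counts scaled to the size of the library). All 8 wing disc markers listed (vg, nub, ap and others) and all 13 salivary gland markers (the Sgs glue genes, fkh and others) had over 3 counts in every library. The disc markers summed to 1094 to 1271 CPM in mutant-labelled discs, 1366 to 1423 CPM in control discs, 76.5 to 86.1 CPM in mutant-labelled glands and 105 to 127 CPM in control glands. Su(var)3-9 had 110, 110 and 76 counts in mutant-labelled discs, against 552, 493 and 705 in control discs. It had 4005, 3364 and 4377 counts in mutant-labelled glands, against 58, 46 and 112 in control glands, which goes against the label of the gland libraries. Every gland direction below therefore rests on the label alone, and where the reads lie within the gene was not analysed here. The counts of egg did not separate the groups in either tissue.

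The genes lie on chromosome arm 3R. On build BDGP6, lab spans 6661427 to 6678590 (FBgn0002522), pb 6707800 to 6742063 (FBgn0051481), Dfd 6791836 to 6802428 (FBgn0000439), Scr 6823120 to 6849981 (FBgn0003339) and Antp 6896253 to 6999228 (FBgn0260642). In the bithorax complex Ubx spans 16656623 to 16734426 (FBgn0003944), abd-A 16807214 to 16830049 (FBgn0000014) and Abd-B 16927212 to 16972236 (FBgn0000015). Dfd alone is on the plus strand. In the annotation 50.1% of the exon bases of Antp also belong to CG46458 on the same strand, a gene not analysed here. The handling of reads in shared exons is unknown, and the level of Antp is therefore uncertain. For Ubx 1.19% of exon bases are overlapped by an antisense RNA.

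Antp made up most Hox transcript in discs and Scr most in glands, each in every library. Of all Hox counts, Antp took 91.7% to 94.1% in mutant-labelled discs, 90.3% to 92.7% in control discs, 28.3% to 40.5% in mutant-labelled glands and 30.9% to 33.3% in control glands. Scr took 57.2% to 70.5% in mutant-labelled glands and 61.0% to 66.0% in control glands, with the next largest disc share, after Antp, being that of Ubx at 4.86% to 7.29% in mutant-labelled and 5.98% to 7.34% in control discs. The 8 genes together had 1728 to 2417 counts per library in mutant-labelled discs, 1700 to 2247 in control discs, 424 to 512 in mutant-labelled glands and 150 to 609 in control glands. In bulk tissue, fewer cells of a type and less RNA per cell cannot be told apart.

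**Figure D1:**
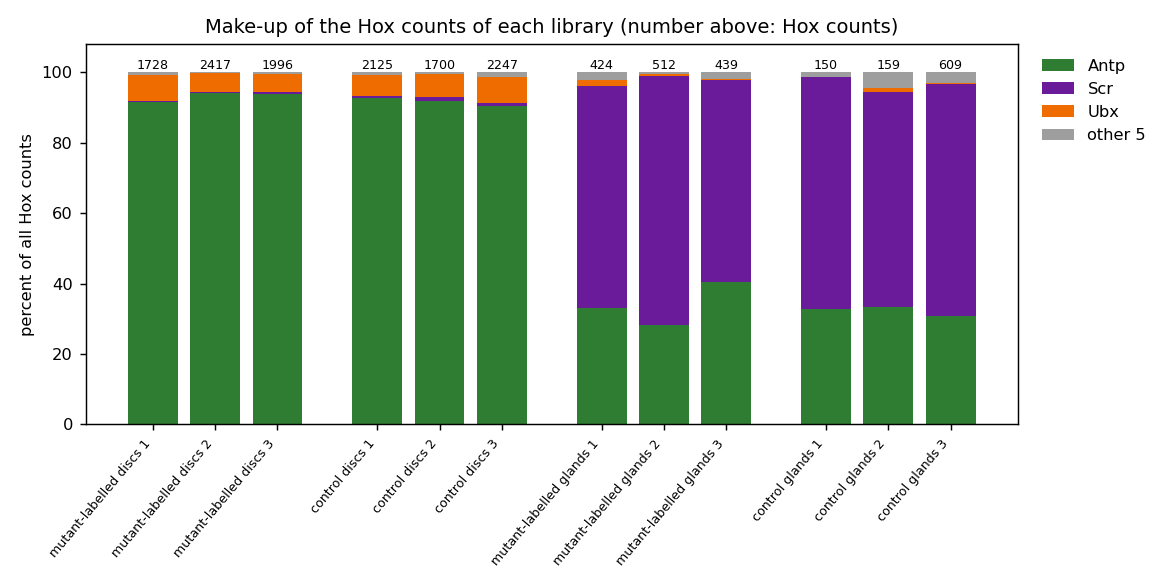
Percent of all Hox counts taken by Antp, Scr, Ubx and the other 5 Hox genes together, 1 bar per library, with the number of Hox counts above each bar. Antp fills 90.3% or more of every disc bar, and Scr fills 57.2% or more of every gland bar.

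Antp, which specifies the second thoracic segment, was by far the highest Hox gene of the discs. It stood at 42.5, 49.8 and 48.6 normalized CPM in mutant-labelled discs and 53.4, 47.7 and 45.3 in control discs. In glands it stood at 4.26, 4.52 and 7.34 CPM in mutant-labelled and 3.75, 4.44 and 5.75 CPM in control libraries. All 6 disc libraries lay above all 6 gland libraries, while the mutant-labelled and control ranges overlapped in both tissues. In 10184 genes compared over the 12 libraries, the genes whose log2 CPM followed Antp most closely were Ack-like (Pearson r = 0.999), fend (0.997) and miple2 (0.997). These coefficients describe the split between tissues that the libraries share and carry no test.

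Ubx, which specifies the third thoracic segment and represses wing genes in the haltere, was the second Hox gene of the discs. It stood at 3.38, 2.76 and 2.52 CPM in mutant-labelled discs and 3.44, 3.39 and 3.68 CPM in control discs. The disc groups did not overlap, but the highest mutant-labelled and the lowest control library were nearly equal. In glands Ubx had 8, 4 and 2 counts in mutant-labelled and 0, 2 and 2 in control libraries, most of them at or under the limit of 3 counts. Corrected for exon length, Antp exceeded Ubx 8.96 ± 1.92-fold in mutant-labelled discs and 7.52 ± 0.868-fold in control discs (SD, n = 3 each). These ratios, and every level of Antp per kilobase below, use all exon bases of Antp, among them those shared with CG46458. The SD does not cover the uncertainty from the shared bases. The genes whose levels followed Ubx most closely over the 12 libraries were THADA (r = 0.998), daed (0.996) and CG8142 (0.996), again as a description.

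Scr, the Hox gene of the labial segment and of the first thoracic segment, was the highest Hox gene of the glands. It stood at 8.13, 11.3 and 10.3 CPM in mutant-labelled glands and 7.57, 8.12 and 12.2 CPM in control glands, with overlapping ranges. In discs it had 4, 10 and 16 counts in mutant-labelled and 10, 20 and 23 counts in control libraries, or 0.107 to 0.416 CPM and 0.271 to 0.610 CPM. Per kilobase of exon, Antp stood at 0.314 ± 0.0892 of the level of Scr in mutant-labelled glands and 0.290 ± 0.0224 in control glands (SD, n = 3 each). The genes closest to Scr over the 12 libraries were asRNA:CR43474 and Mo25 (r = 0.992 each) and CrebA (0.991), again as a description without a test. CrebA is a secretory regulator that Scr is known to turn on in the embryonic gland. Whether Scr acts on CrebA in these tissues was not tested.

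The anterior gene lab, known for its role in the head and the midgut, had 10, 6 and 11 counts in mutant-labelled discs and 13, 5 and 16 in control discs. In glands it had 1, 0 and 0 counts in mutant-labelled libraries and 0, 0 and 6 in control libraries. Thus lab was above 3 counts in all 6 disc libraries and in 1 gland library. The genes closest to lab, St1 (r = 0.953), RyR (0.948) and Smyd4-2 (0.946), were themselves low. Dfd, which specifies the mandibular and maxillary segments, had 6, 2 and 8 counts in mutant-labelled glands and 2, 4 and 4 in control glands. In discs Dfd had no count in the mutant-labelled libraries, which allows up to 0.0398 CPM over that group, and 0, 2 and 2 counts in the control libraries.

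The remaining members were at the limit of detection. pb, which specifies the adult mouthparts, had 0 to 2 counts in mutant-labelled discs, 0 to 1 in control discs and 0 to 3 in control glands. It had none in mutant-labelled glands, which allows up to 0.0192 CPM over the group. abd-A and Abd-B specify the abdomen and are normally silent in thoracic and labial tissue. abd-A had 0 to 2 counts in mutant-labelled discs, 0 to 8 in control discs, none in mutant-labelled glands and 0 to 4 in control glands. Abd-B had at most 3 counts in any library of any group. These genes and Dfd did not pass the low-count filter in any comparison of all libraries, and without the filter they were not called either, so a change of theirs was not detectable at this depth.

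**Figure D2:**
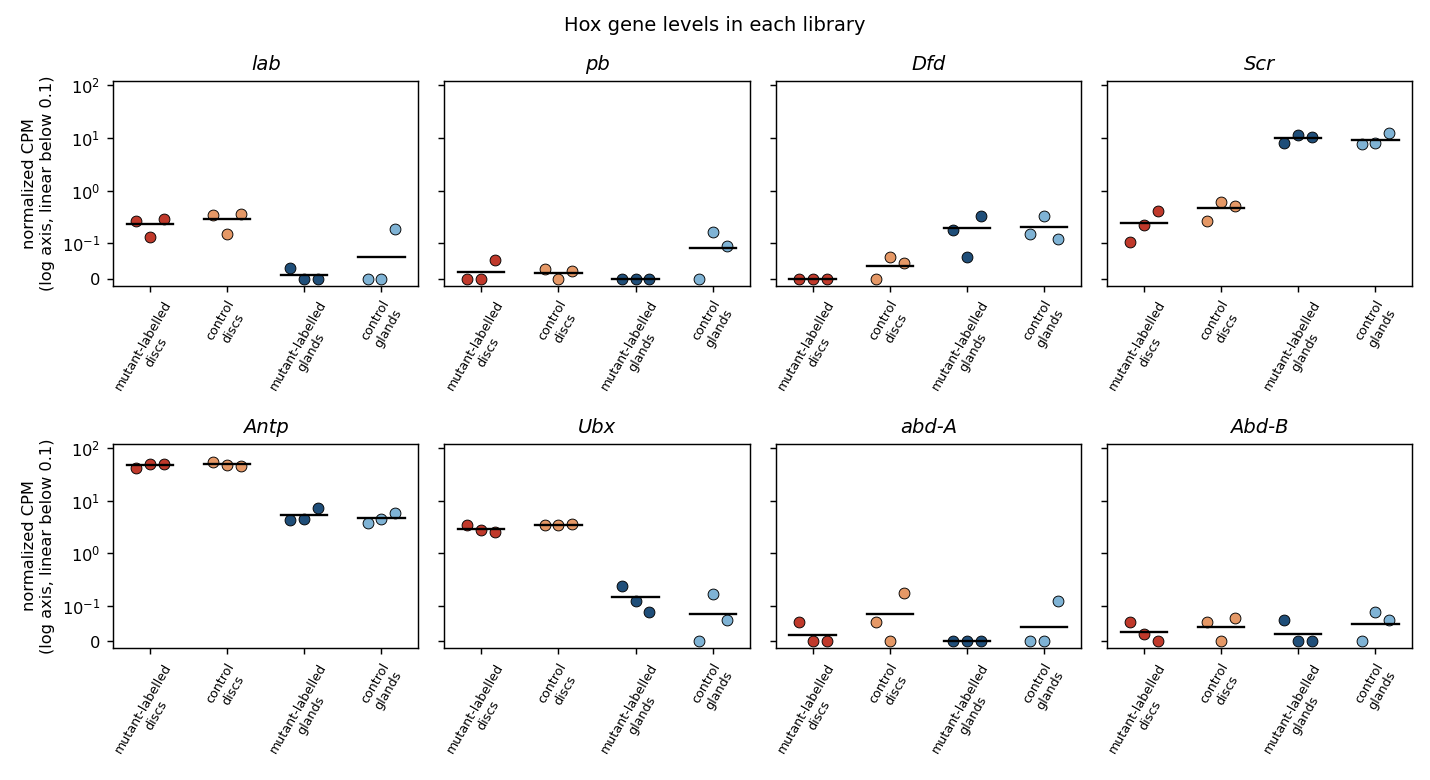
Normalized CPM of each Hox gene in each of the 12 libraries (points) with the group mean (line, n = 3), on a log axis that is linear below 0.1. Antp and Ubx lie higher in discs, Scr lies higher in glands, and the mutant-labelled and control points of Antp overlap in both tissues; pb, abd-A and Abd-B lie at or near 0 in every group.

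Per kilobase of exon, the order of levels in mutant-labelled discs was Antp (5.91 CPM per kb), Ubx (0.674), lab (0.0750) and Scr (0.0540), and in control discs Antp (6.14), Ubx (0.818), Scr (0.102) and lab (0.0943). Antp and Ubx each stood apart from the next gene in both disc groups, while lab and Scr overlapped each other. In mutant-labelled glands the order was Scr (2.17 CPM per kb), Antp (0.676) and Dfd (0.0700), and in control glands Scr (2.03), Antp (0.585) and Dfd (0.0743). Scr and Antp each stood apart from the next gene in both gland groups, and Dfd overlapped the gene that followed it.

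Between the control tissues Antp was higher in discs, by edgeR's quasi-likelihood test with Benjamini-Hochberg adjustment over the 9402 genes tested. The tissues differed widely: 80.2% of all genes tested were called, 41.1% as higher and 39.2% as lower in discs, and the control groups did not overlap for 84.2% of genes. Antp was 9.99-fold higher in control discs than in control glands (log2 3.32 ± 0.18 SE, 95% interval 2.91 to 3.74, adjusted p = 1.43e-06). Scr was 20.7-fold lower in discs (log2 -4.37 ± 0.35, 95% interval -5.19 to -3.58, adjusted p = 9.30e-06). With 10, 20 and 23 counts in control discs, Scr passed the low-count filter only because of the glands, so that call carries no weight. Ubx, with 127, 111 and 165 counts in control discs against 0, 2 and 2 in control glands, was also called, but it passed the low-count filter through the discs alone, so the call carries no weight. Its fitted log2 value of 5.52 rests on 4 gland counts in all. With library totals as the only scaling, a setting added after the data were seen, the median of all genes was 1.47 in log2 in place of 0.084, and Antp stood at 4.71, Ubx at 6.86 and Scr at -2.99.

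Markers of each tissue were also counted in the other. Summed over the 8 disc markers, control glands held 8.39% of the CPM of control discs, with 2.41% to 28.0% for single markers, and the value was 9.53% for Antp and 2.18% for Ubx. Summed over the 13 gland markers, control discs held 0.649% of the CPM of control glands, with 0.175% to 16.4% for single markers, and the value for Scr was 4.99%. In the mutant-labelled tissues the disc markers stood at 6.75%, Antp at 11.4% and Ubx at 5.21%, and the gland markers at 0.459% and Scr at 2.50%. Fat body markers summed to 20636 to 31220 CPM in control glands and 44348 to 55133 CPM in mutant-labelled glands. How far tissue carried over from dissection contributes to Antp in glands, to Scr in discs or to the gland comparisons was not tested.

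No Hox gene passed the test between mutant-labelled and control discs. Of 9379 genes tested 31.3% were called, and of the 4 Hox genes tested (lab, Scr, Antp and Ubx) 0 were called and 0 had an unadjusted p under 0.05, by edgeR's quasi-likelihood test with Benjamini-Hochberg adjustment. At an unadjusted p under 0.05 there were 3962 genes in all, and DESeq2 and limma-voom also called 0 Hox genes. Antp averaged 47.0 ± 3.92 CPM in mutant-labelled and 48.8 ± 4.17 CPM in control discs (SD, n = 3 each), a log2 change of -0.067 ± 0.089 SE with a 95% interval of -0.26 to 0.13 (edgeR adjusted p = 0.607). A loss beyond 1.20-fold or a gain beyond 1.09-fold thus lies outside that interval. Without control library 1 the value was 0.0063, and without mutant-labelled library 1 it was 0.0094, on the other side of 0.

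Ubx averaged 2.89 ± 0.442 CPM in mutant-labelled and 3.50 ± 0.156 CPM in control discs (SD, n = 3 each). Its log2 change of -0.29 ± 0.17 SE had a 95% interval of -0.68 to 0.09 (edgeR adjusted p = 0.225), so a loss of up to 1.60-fold lies within it. The disc groups of Ubx did not overlap, as was so for 47.3% of all genes tested. Scr averaged 0.247 ± 0.156 CPM in mutant-labelled and 0.465 ± 0.175 CPM in control discs, a log2 change of -0.91 ± 0.53 SE (95% interval -2.09 to 0.25, edgeR adjusted p = 0.213). lab averaged 0.228 ± 0.0847 CPM in mutant-labelled and 0.287 ± 0.117 CPM in control discs, a log2 change of -0.39 ± 0.51 SE (95% interval -1.52 to 0.74, edgeR adjusted p = 0.597). All 4 estimates were below 0, and every interval includes 0. Scr passed the low-count filter only because of the control libraries, so the sign of its estimate carries no weight. With so few counts, the intervals of Scr and lab cannot separate a loss by more than 2-fold from no change.

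In glands 13.2% of 9441 genes tested were called, and of the 2 Hox genes tested, Scr and Antp, 0 were. By the same edgeR test 2527 genes had an unadjusted p under 0.05 and neither Hox gene did, and DESeq2 and limma-voom called 0 as well. Scr averaged 9.91 ± 1.61 CPM in mutant-labelled and 9.31 ± 2.55 CPM in control glands (SD, n = 3 each), a log2 change of -0.0068 ± 0.25 SE (95% interval -0.57 to 0.56, edgeR adjusted p = 0.991). Antp averaged 5.37 ± 1.71 CPM in mutant-labelled and 4.65 ± 1.02 CPM in control glands, a log2 change of 0.12 ± 0.31 SE (95% interval -0.60 to 0.84, edgeR adjusted p = 0.851). Both signs turned under other settings, since both values are near 0. The intervals are wider than that of Antp in discs. Gland libraries had a biological coefficient of variation of 0.292, which for disc libraries was 0.102, and Antp had 463 and 290 counts in all in mutant-labelled and control glands against 5728 and 5561 in mutant-labelled and control discs.

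The difference between the disc and the gland change was tested as an interaction over all 12 libraries, where 10.1% of 10185 genes were called, 4.47% with a higher and 5.62% with a lower change in discs. Of the 4 Hox genes tested 0 were called by edgeR, and DESeq2 and limma-voom also called 0; 2344 genes in all, and no Hox gene, had an unadjusted p under 0.05. The log2 difference, discs minus glands, was -0.23 ± 0.29 SE for Antp (edgeR adjusted p = 0.720), -0.97 ± 0.56 for Scr (0.325) and -1.38 ± 0.81 for Ubx (0.327). The value of Ubx rests on gland counts of 8, 4 and 2 in mutant-labelled and 0, 2 and 2 in control libraries, too few for a test in glands. For lab it was 2.33 ± 1.74 (0.395), a value set by control gland library 3, which held all 6 of the control gland counts; without it the value was -2.30.

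**Figure D3:**
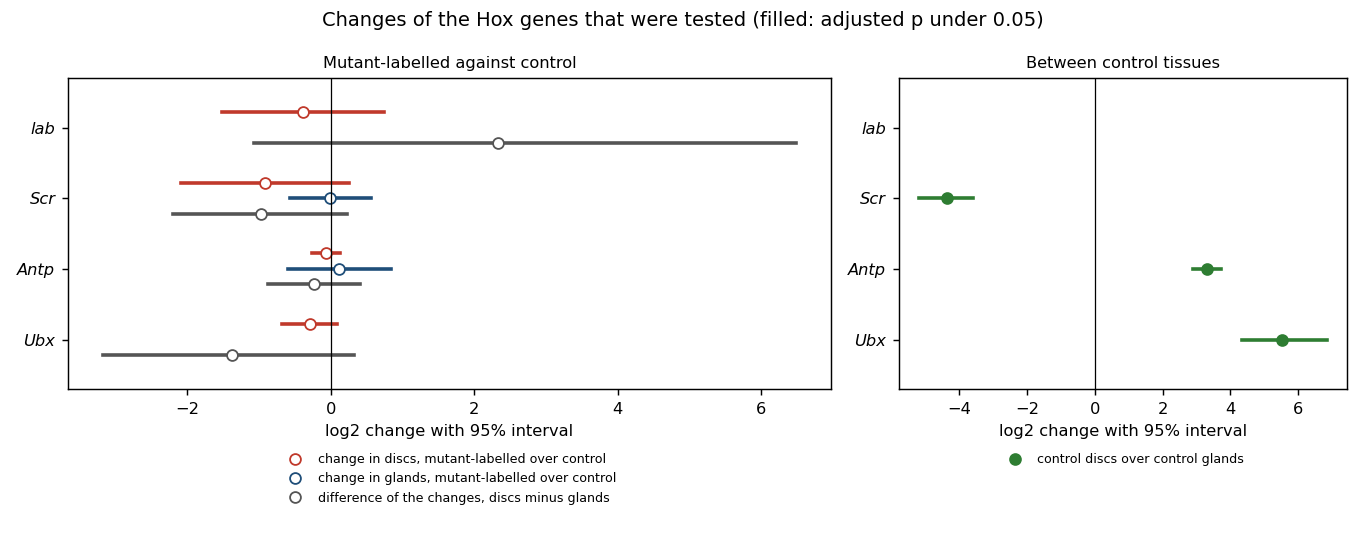
Log2 changes of the Hox genes tested, with 95% intervals (lines) and estimates (points, filled where the adjusted p is under 0.05), for mutant-labelled over control libraries and their difference between tissues (left) and for control discs over control glands (right). Every interval on the left includes 0, while the 3 intervals on the right lie away from it. Of these, that of Ubx rests on 4 gland counts and that of Scr on disc counts of 10, 20 and 23.

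Within the complexes, most neighbours of the Hox genes did not reach 1 CPM in any group. The Antennapedia complex, from lab to Antp, spans 337.802 kb and holds 39 other genes in the tables, of which 13 had no count in any library and 8 reached 1 CPM in a group. The bithorax complex, from Ubx to Abd-B, spans 315.614 kb with 12 other genes in the tables. Of these 7 had no count, none reached 1 CPM and none could be tested. Among them lncRNA:bxd, a noncoding RNA transcribed upstream of Ubx, averaged 0.0556 CPM in control discs and had no count in the other groups.

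bcd encodes the homeodomain protein that patterns the anterior of the embryo from maternal mRNA, and lies between pb and Dfd. It had 153, 459 and 334 counts in mutant-labelled discs, against 8, 4 and 1 in control discs. In glands it had 322, 494 and 855 counts in mutant-labelled libraries, against 10, 3 and 3 in control libraries. Every mutant-labelled library lay above every control library of its tissue, as the groups did not overlap for 47.3% of genes tested in discs and 32.3% in glands, while Scr and Antp in the same complex overlapped between the groups. The fitted log2 change of bcd was 6.01 ± 0.52 SE in discs (edgeR adjusted p = 1.35e-05) and 5.93 ± 0.81 in glands (edgeR adjusted p = 0.00309). In both tissues bcd passed the low-count filter only because of the mutant-labelled libraries, so these calls carry no weight. The fitted values rest on the few control counts. The disc value was 6.80 without control library 1. The gland value was 7.08 without control library 1, 5.15 without control library 3 and 5.19 without mutant-labelled library 3.

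Calls among the other neighbours depended on single libraries. Ama, a gene for a secreted immunoglobulin-domain protein, fell by 0.32 ± 0.09 SE in log2 in discs (122.5 ± 13.1 CPM in mutant-labelled against 151 ± 10.05 CPM in control discs, edgeR adjusted p = 0.0187). That call was lost without control disc library 2 (adjusted p = 0.0750) or 3 (0.0830) and in a fit of all 12 libraries (0.664). In glands lncRNA:CR45593, which overlaps Ama on the opposite strand, rose by a log2 of 1.71 ± 0.46 SE (edgeR adjusted p = 0.0459). Without stated strand, reads in the overlap, which is 5.24% of the exon bases of Ama and 7.25% of those of lncRNA:CR45593, cannot be told apart. The call of lncRNA:CR45593 was lost with limma-voom (adjusted p = 0.0713) and without any 1 of 5 of the 6 gland libraries (all but mutant-labelled library 1), at adjusted p of 0.0506 to 0.138. lncRNA:CR45559, beside Antp, rose in glands as well (log2 1.71 ± 0.42, edgeR adjusted p = 0.0331), with 80, 52 and 45 counts in mutant-labelled and 6, 4 and 26 in control libraries. That call was lost without control gland library 1 or any 1 mutant-labelled library, at adjusted p of 0.0684 to 0.123. lncRNA:CR33938, between lab and pb, stood at 23.3 ± 6.91 CPM in mutant-labelled and 21.3 ± 3.20 CPM in control discs, with overlapping ranges.

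**Figure D4:**
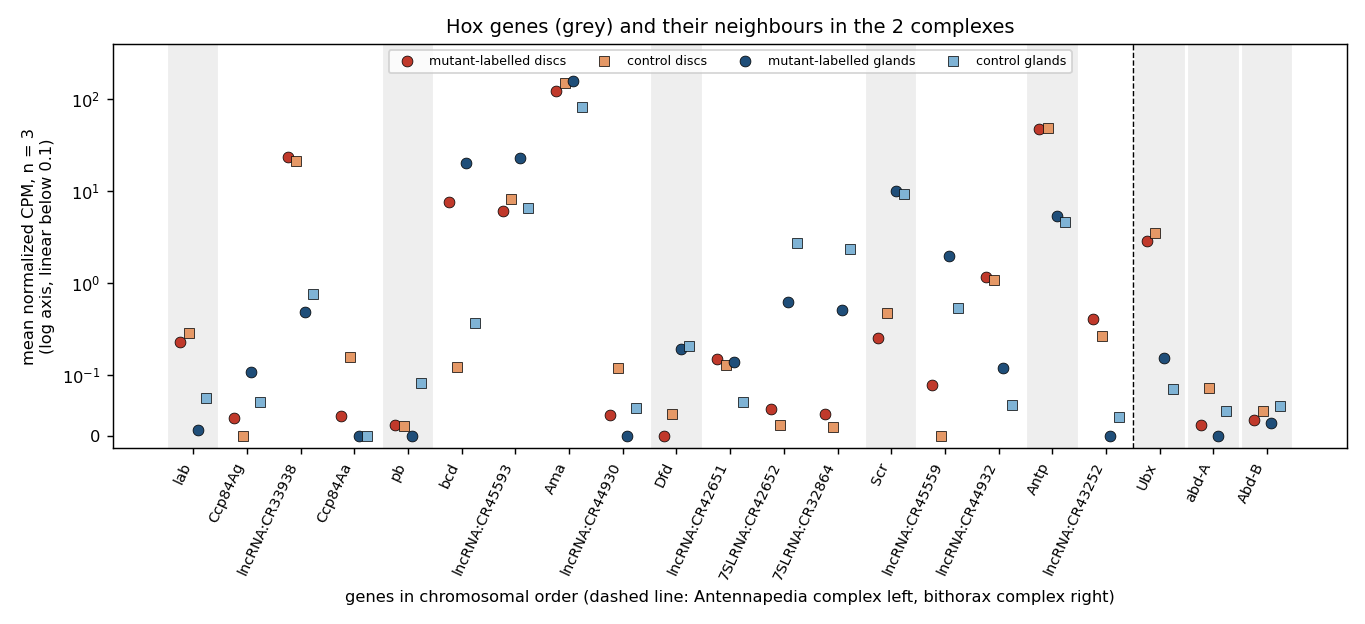
Mean normalized CPM (n = 3) of the Hox genes (grey bands) and of their neighbours with more than 10 counts over all libraries, in chromosomal order, on a log axis that is linear below 0.1; circles are mutant-labelled groups and squares control groups. bcd separates mutant-labelled from control groups in both tissues, while the mutant-labelled and control points of Antp in both tissues and of Scr in glands lie close together.

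Hox proteins bind DNA with partners, of which exd and hth are the best known and tsh is a zinc finger cofactor of the trunk. Of the 7 cofactors listed, 0 of 7 tested in discs and 0 of 6 tested in glands were called, beside 31.3% and 13.2% of all genes. Their median log2 change was -0.17 in discs, beside 0.00016 for all genes, and -0.47 in glands, beside -0.039. hth averaged 382 ± 42.0 CPM in mutant-labelled and 448 ± 45.6 CPM in control discs (log2 -0.24 ± 0.10, edgeR adjusted p = 0.0854), and exd 229 ± 25.4 CPM in mutant-labelled and 246 ± 4.71 CPM in control discs (log2 -0.12 ± 0.08, adjusted p = 0.311). Without mutant-labelled disc library 3, 2 cofactors were called as lower.

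Genes that Ubx represses or tunes in the haltere are active in the wing disc. Of the 14 listed, all tested in discs, 4 fell and 0 rose, where 15.2% of all genes tested fell and 16.0% rose; the median log2 change was -0.18. wg, the Wnt ligand of the wing margin, averaged 59.1 ± 4.65 CPM in mutant-labelled and 78.4 ± 3.42 CPM in control discs (log2 -0.42 ± 0.07, edgeR adjusted p = 0.00198). tkv, a receptor for the Dpp morphogen, fell by 0.34 ± 0.08 (edgeR adjusted p = 0.00735), and rho, which activates EGF receptor ligands in vein cells, by 0.79 ± 0.17 (edgeR adjusted p = 0.00614). sbb, the other gene that fell, was lost as a call without any 1 of 5 disc libraries. Without mutant-labelled disc library 3, 7 of the list fell; in a fit of all 12 libraries, 0 did. In glands 0 of 13 were called, beside 13.2% of all genes.

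Genes downstream of Scr in the embryonic gland were for the most part higher in the larval gland too. Of the list, fkh, sage and CrebA are also among the gland markers, so their direction carries no weight. Between control tissues 6 of 7 tested were lower in discs and 1 was higher, beside the 39.2% and 41.1% of all genes; with library totals as the only scaling, eyg and toe stood above 0. fkh, the forkhead factor needed for gland identity, averaged 206 ± 19.3 CPM in mutant-labelled and 239 ± 30.4 CPM in control glands (log2 -0.31 ± 0.17, edgeR adjusted p = 0.309). sage, a gland-specific factor of the basic helix-loop-helix family, had a log2 change of 0.48 ± 0.15 in glands (edgeR adjusted p = 0.0833), and 0 of 7 listed genes were called there, beside 7.26% of all genes that rose and 5.91% that fell. In discs 3 of 7 fell, namely sens, CrebA and eyg, beside 15.2% of all genes that fell. Without mutant-labelled disc library 3, 5 of 7 fell, and in a fit of all 12 libraries 2 of 7 did. sens, a zinc finger factor of sensory precursors, averaged 5.17 ± 0.401 CPM in mutant-labelled and 7.66 ± 0.632 CPM in control discs (log2 -0.58 ± 0.12, edgeR adjusted p = 0.00591).

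Of 6 other Hox targets listed, 2 of 6 tested fell in discs, Dll and Con, beside 15.2% of all genes. In glands 1 of 4 tested fell, the cell death gene rpr, beside 5.91% of all genes. Dll, the limb gene that abdominal Hox proteins repress, fell by 0.34 ± 0.10 in log2 in discs (edgeR adjusted p = 0.0240). Both disc calls were lost without control disc library 2 or 3 or mutant-labelled disc library 2. rpr fell by 2.85 ± 0.66 in log2 in glands (edgeR adjusted p = 0.0271), with the call lost without control gland library 1 or 3 or mutant-labelled gland library 1 or 2, at adjusted p of 0.0605 to 0.0874. Without mutant-labelled gland library 3 its log2 change was -3.56 (adjusted p = 0.0153).

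Homeobox and paired-box genes outside the complexes, many of them also kept by the Polycomb group, fell more than they rose in discs. Of 40 listed 20 could be tested in discs. Of these 12 fell, 1 rose and 7 did not pass, where 15.2% of all genes fell and 16.0% rose. Among those that fell, eyg and Dll are the same calls as in the lists of Scr targets and other Hox targets. The median log2 change was -0.36, beside 0.00016 for all genes. Dr averaged 63.8 ± 3.98 CPM in mutant-labelled and 97.5 ± 2.90 CPM in control discs (log2 -0.62 ± 0.07, edgeR adjusted p = 7.96e-05). The posterior selector en fell by 0.65 ± 0.08, the dorsal selector ap by 0.62 ± 0.08 and C15 by 0.74 ± 0.11 (edgeR adjusted p at most 0.000523). lms, named after its value was seen as the 1 that rose, had a log2 change of 0.68 ± 0.11 (edgeR adjusted p = 0.00115). Without control disc library 2, 7 fell, and in a fit of all 12 libraries 3 did. Beside this, 3 of the 8 wing disc markers, en and ap among them, fell and 1 rose. Of 10 markers of leg and eye-antennal discs tested 4 fell, toy and so among them, which are in the homeobox list as well (1 fell without control disc library 2 and 2 without mutant-labelled disc library 2); these markers summed to 127 to 166 CPM in mutant-labelled and 137 to 167 CPM in control discs. Of 8 hemocyte markers tested 3 fell, and they summed to 67.2 to 174 CPM in mutant-labelled and 77.2 to 122 CPM in control discs. The part of these markers in the result was not tested. In glands 0 of 18 homeobox genes were called, beside 13.2% of all genes.

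The Polycomb group, which keeps Hox genes silent, was lower in mutant-labelled discs for several core members. Of 23 tested 9 fell, 1 rose and 13 did not pass, beside 15.2% of all genes that fell and 16.0% that rose, with a median log2 change of -0.18. Psc, a subunit of Polycomb repressive complex 1, averaged 52.5 ± 2.85 CPM in mutant-labelled and 88.3 ± 9.02 CPM in control discs (log2 -0.76 ± 0.08, edgeR adjusted p = 8.81e-05). ph-p, of the same complex, fell by 0.61 ± 0.09 and Su(z)2, a paralog of Psc, by 0.61 ± 0.09 (edgeR adjusted p at most 0.000857). E(z), the H3 lysine 27 methyltransferase, was the 1 that rose and is named after its value was seen (log2 0.33 ± 0.07, edgeR adjusted p = 0.00620). In a fit of all 12 libraries 0 of the 23 were called. The disc marker sum given above was lower in mutant-labelled than in control discs as well, and its part in these calls was not tested. In glands, where 13.2% of all genes were called, Psc alone of 23 was, as lower (log2 -1.19 ± 0.32, edgeR adjusted p = 0.0444), a call lost without any 1 of 5 gland libraries; gland markers of fat body stood at 44348 to 55133 CPM in mutant-labelled and 20636 to 31220 CPM in control libraries, and their part in this was not tested.

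The trithorax group, which keeps Hox genes active, showed a like count in discs, with 10 of 29 lower, 1 higher, 18 not past the threshold and a median log2 change of -0.13, beside 15.2% of all genes lower and 16.0% higher. ash1, a histone methyltransferase, averaged 48.7 ± 1.27 CPM in mutant-labelled and 68.6 ± 4.55 CPM in control discs (log2 -0.51 ± 0.07, edgeR adjusted p = 0.000469). Set1 and trx, methyltransferases of H3 lysine 4, fell by 0.35 ± 0.07 and 0.37 ± 0.08, and the demethylase Kdm5 by 0.36 ± 0.07 (edgeR adjusted p at most 0.00511). Dsp1, named after its value was seen, rose by 0.25 ± 0.07 (edgeR adjusted p = 0.0185), a call lost without control disc library 2 or 3 or mutant-labelled disc library 2. Without control disc library 2, 6 of the 29 fell, and in a fit of all 12 libraries 0 did. In glands Trl, the GAGA factor, was the 1 called of 29, as lower, beside 13.2% of all genes called, and lost that call without any 1 library; 77.8% of its exon bases overlap other genes. By edgeR's interaction test between discs and glands, 0 of the 23 Polycomb group and 0 of the 29 trithorax group genes were called, beside 10.1% of all genes.

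**Figure D5:**
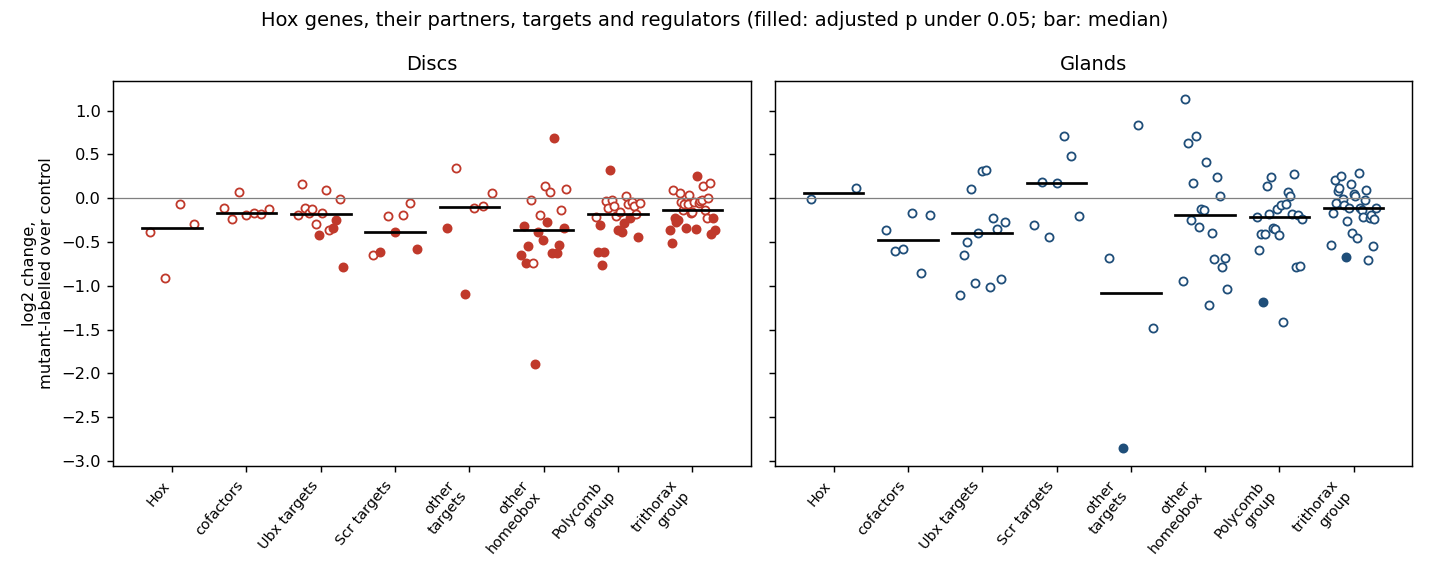
Log2 change, mutant-labelled over control, of each gene tested (points, filled where the adjusted p is under 0.05) in the Hox genes and in the lists of partners, targets, other homeobox genes and regulators, with the median of each list (bar), in discs (left) and glands (right). The 4 Hox genes and the cofactors of the discs are open points. Filled disc points lie on both sides of 0 among the other homeobox, Polycomb group and trithorax group genes, with 1 above 0 in each. Among the Ubx, Scr and other targets the filled disc points lie below 0.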

How the data were processed

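Polyadenylated RNA had been sequenced in 12 libraries. The deposited gene tables hold counts per FlyBase gene ID, which the authors made with cutadapt, HISAT2 and featureCounts on builds BDGP6 and dm6, per the submitters' processing notes; versions, strand and handling of shared reads are not known from those notes. No column was left out, and transposon tables were not used. Positions and exon lengths come from Ensembl's BDGP6 annotation, release 115, which held 17710 of the 17807 IDs; con and lid were matched as Con and Kdm5, and calypso was not matched.

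Analyses used R 4.3.3, edgeR 4.0.16, limma 3.58.1, DESeq2 1.42.0 and Python 3.11.15. Genes were kept by filterByExpr defaults and scaled by TMM within the libraries compared. Each tissue, the control tissues, and all 12 libraries for the interaction were fitted by edgeR's quasi-likelihood test, adjusted after Benjamini-Hochberg across every gene in the fit and called at an adjusted p under 0.05. SE was worked back from the F test. Levels are CPM with TMM factors over all 12 libraries and no prior count, given as mean ± SD; n = 3. The limit for a count of 0 is 3 counts and covers counting error only. Fits were tested on simulated data, with changes placed only in genes above the levels of Scr and lab in discs. Tests of genes that low were not covered.

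Named are egg, Su(var)3-9, the Hox genes, complex neighbours called in a tissue or at 1 CPM or more, the 4 lowest p per list and tissue, and the 3 closest genes per member by Pearson r of log2 CPM (prior count 2). The members and lists were chosen with earlier results of these data known. Each fit was repeated with DESeq2, with limma-voom, with RLE or upper-quartile factors, without the filter, with replicate number as a block, with all 12 libraries in 1 fit, without the 20 most abundant genes, and without each library; library totals as the only scaling were added later.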

Additional observations from a re-analysis of the deposited data

How the results depend on the processing

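In every alternative run, 0 Hox genes were called in discs, in glands and in the interaction. Between control tissues 3 were called in every alternative but 1, beside 80.2% of all genes tested in the main fit. Without control gland library 3, 4 were called, with lab added as higher in discs. In that run lab had 0 and 0 gland counts and passed the low-count filter through the discs alone. That call carries no weight, nor, as given above, do those of Ubx and Scr. Of the values near 0, Scr in glands (reported log2 -0.0068) stood above 0 without the 20 most abundant genes (0.022), in the fit of all 12 libraries (0.078), without the low-count filter (0.016) and with upper-quartile factors (0.0068), and ranged from -0.11 to 0.22 with 1 library left out. Antp in glands (0.12) stood at -0.0081 with limma-voom and at -0.0080 with library totals only, and ranged likewise from -0.20 to 0.28. With 1 library left out, Antp in discs ranged from -0.12 to 0.0094, Antp in the interaction from -0.44 to 0.052 and lab in the interaction from -2.30 to 4.26. With library totals only, the control tissue differences of cnc (0.41), eyg (0.29), toe (0.39), ct (0.058), Trl (0.74) and Mo25 (0.62) turned above 0. Over all genes, the 2932 calls in discs became 1032 in the fit of all 12 libraries and ranged, with 1 library left out, from 1883, without control 2, to 2984. The 1243 calls in glands became 2360 in that fit and ranged, with 1 library left out, from 705, without mutant-labelled 2, to 1512. The 1027 interaction calls became 1574 with DESeq2 and ranged, with 1 library left out, from 662, without control disc 3, to 1366. The causes were not tested. Same-numbered libraries did not all deviate together, and not every library correlated best with its own number (r of -0.0687 to 0.150 in discs, 0.00853 to 0.382 in glands, -0.0595 to -0.0352 between control tissues). Whether numbers pair samples is thus not settled, and the main fits did not pair them. With the replicate block, 3007 genes in discs, 1570 in glands, 7215 between control tissues and 1162 in the interaction were called, no Hox call changed, and Scr in glands stood at 0.012. Depth limits pb, Dfd, abd-A and Abd-B, which did not pass the low-count filter with all libraries in.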

Other observations

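Control gland library 3 held all 6 counts of lab and all 4 counts of abd-A in control glands. It is the deepest control gland library. In the same library the copies of 7SL RNA inside the Antennapedia complex, 7SLRNA:CR42652 and 7SLRNA:CR32864, had 258 and 225 counts. In the other 2 control gland libraries 7SLRNA:CR42652 had 1 and 2 counts and 7SLRNA:CR32864 had 1 and 0. In mutant-labelled glands they had 12, 12 and 27 counts and 10, 8 and 23 counts. These copies resemble each other, so the split of reads between them is uncertain.

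lncRNA:CR44932, which lies just beside the 3′ end of Antp, stood at 1.15 ± 0.0320 CPM in mutant-labelled and 1.08 ± 0.0311 CPM in control discs (SD, n = 3 each). In glands it had 2, 4 and 4 counts in mutant-labelled libraries and 2, 0 and 0 in control libraries. The tissue that held more of it was thus the tissue that held more Antp, as 41.1% of all genes tested were called higher in control discs.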
